A study of Mus musculus with 6 samples.

Results

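Splicing factors and RNA-binding proteins of nuclear ribonucleoprotein (RNP) particles are described here in kidneys of mice with a heart muscle transgene. The genes were taken by symbol: those that start with Srsf, Hnrnp, Snrp, Sf3a, Sf3b, Prpf or Lsm plus a digit, and U2af1, U2af2, Sf1, Tra2a and Tra2b. The rule matched 74 of the 7373 genes in the authors' table. Hnrnph2 was dropped because it is listed at 0 in control 3, which leaves 73 genes. They comprise 12 genes of SR proteins, 18 of hnRNPs, 3 of splice site recognition (U2af1, U2af2, Sf1), 8 of the SF3A and SF3B complexes, 11 of Sm and other small nuclear RNP (snRNP) proteins, 11 of PRPF proteins and 10 of LSm proteins.

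The transgenic group, 3 samples, came from adult male FVB/N mice in which the α-myosin heavy chain promoter drives the R120G mutant of CryAB, a small heat shock protein, in cardiomyocytes. These mice had not yet developed heart failure. The control group, 3 samples, came from adult male FVB/N mice of matching age, and the labels give no further allele for them. All 6 samples are whole kidneys that were halved and frozen, and the authors' column names mark them Pre_IRI. The promoter is a heart muscle promoter, so levels of Cryab in the kidney do not check the genotype. The labels do not tie samples to animals, so the p-values rest only on how far these 6 samples differ, which may be technical.

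Splicing joins exons and removes introns. Sm proteins form rings around the small nuclear RNAs, and some LSm proteins form related rings on U6 snRNA and on decaying mRNA. SF1 and the U2AF pair read the branch site and the end of the intron, the SF3A and SF3B complexes then hold the U2 particle there, and PRPF proteins build and drive the later complexes. SR proteins mostly promote exon use and hnRNPs often oppose it, and both groups are expressed in almost every cell of the kidney. Many of these genes limit their own product by splicing in a stop codon that sends the mRNA to nonsense-mediated decay.

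The libraries held 23.5 to 31.7 M estimated counts in transgenic kidneys and 28.0 to 47.6 M in control kidneys. The 73 genes took 0.631% to 0.633% of the counts in transgenic kidneys and 0.601% to 0.669% in control kidneys. These shares are of the counts without the genes at 0 in control 3, which the library totals include. Kidney markers were abundant in every library: Umod, the uromodulin gene of the thick ascending limb, stood at 1951 to 2245 CPM (counts scaled to a library of 1 M counts) in transgenic and 2024 to 2596 CPM in control kidneys. None of the 6 listed markers of skeletal and heart muscle is in the table. Control 3 stood apart before any result: it lists all 178 genes of the X and Y chromosomes at 0, and these rows were left out of all fits except 1 alternative. Whole kidney RNA was measured, so fewer cells of a type and less RNA per cell cannot be told apart.

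Control 3 also differed from controls 1 and 2 within these gene families, and the differences went with the base composition of the genes. The sequences below are examples, chosen after their values were seen. Lsm5, Srsf4 and Sf3a2 were taken because control 3 differed most from controls 1 and 2 in them. Hnrnpr was taken for its unadjusted p under 0.05 between the groups (edgeR). In these genes control 3 and base composition go together. Lsm5 and Hnrnpr were high in control 3, and Srsf4 and Sf3a2 were low there. Shown are the last 120 bases of each coding sequence, stop codon included. All are read from GENCODE vM21 transcripts on GRCm38 in the sense direction, 5′ to 3′. Capitals mark G and C.
Lsm5 (chromosome 6, minus strand, coding bases 157 to 276): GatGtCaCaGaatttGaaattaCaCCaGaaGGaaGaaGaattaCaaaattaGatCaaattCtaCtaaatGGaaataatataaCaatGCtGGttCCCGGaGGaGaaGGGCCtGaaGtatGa
Hnrnpr (chromosome 4, plus strand, coding bases 1780 to 1899): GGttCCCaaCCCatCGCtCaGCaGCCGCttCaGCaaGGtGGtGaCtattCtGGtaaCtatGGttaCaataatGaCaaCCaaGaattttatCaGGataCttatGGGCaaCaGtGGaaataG
Srsf4 (chromosome 4, plus strand, coding bases 1357 to 1476): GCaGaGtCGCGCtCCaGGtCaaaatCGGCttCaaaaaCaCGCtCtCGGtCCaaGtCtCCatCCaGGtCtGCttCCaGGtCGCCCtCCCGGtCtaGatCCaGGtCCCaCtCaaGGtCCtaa
Sf3a2 (chromosome 10, plus strand, coding bases 1339 to 1458): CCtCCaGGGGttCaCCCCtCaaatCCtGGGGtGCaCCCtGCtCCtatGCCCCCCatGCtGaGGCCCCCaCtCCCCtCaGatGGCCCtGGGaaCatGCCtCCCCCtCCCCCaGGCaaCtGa
G and C made up 42 of the 120 bases in Lsm5, 53 in Hnrnpr, 69 in Srsf4 and 80 in Sf3a2. Over the whole coding sequence the shares were 40.6%, 47.9%, 57.9% and 62.6%. The Srsf4 end is rich in arginine and serine codons, for which SR proteins are named, and the Sf3a2 end is rich in proline codons. At the ends of the range the differences were small. Prpf39, with the lowest share of the 73 (38.3%), differed by 0.064 on the log2 scale between control 3 and the mean of controls 1 and 2, and Hnrnpa0, with the highest (71.8%), by 0.0084.

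Between the groups, none of the 73 genes had an adjusted p under 0.05 by edgeR's quasi-likelihood F test (p-values adjusted by Benjamini-Hochberg across 7194 genes), nor did any with DESeq2 or limma. Over all genes tested, 0.0139% passed, which is 1 gene. At an unadjusted p under 0.05 there was 1 of the 73, Hnrnpr, or 1.37%, against a background of 1.82% of all genes. The log2 fold change, transgenic over control, had a median of -0.012 over the 73 genes and 0.0010 over all genes tested. Its median size without sign was 0.07 in both. It lay above 0 in 35 of the 73 and below 0 in 38, and within 0.2 of 0 in 69.

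The precision can be read from the intervals. The standard error of the log2 fold change was between 0.08 and 0.28, with a median of 0.11. In 68 of the 73 genes (93.2%, against 89.6% of all genes tested) the 95% interval lay within a 1.5-fold difference either way. The exceptions were Hnrnpr (-0.79 to -0.11), Lsm5 (-1.10 to 0.15), Prpf40b (-0.36 to 0.62), Sf3a2 (-0.31 to 0.61) and Srsf4 (-0.41 to 0.59). In these 5 genes control 3 differed from the mean of controls 1 and 2 by 0.46, 0.91, -0.77, -0.80 and -0.87 on the log2 scale, in the order given.

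**Figure D1:**
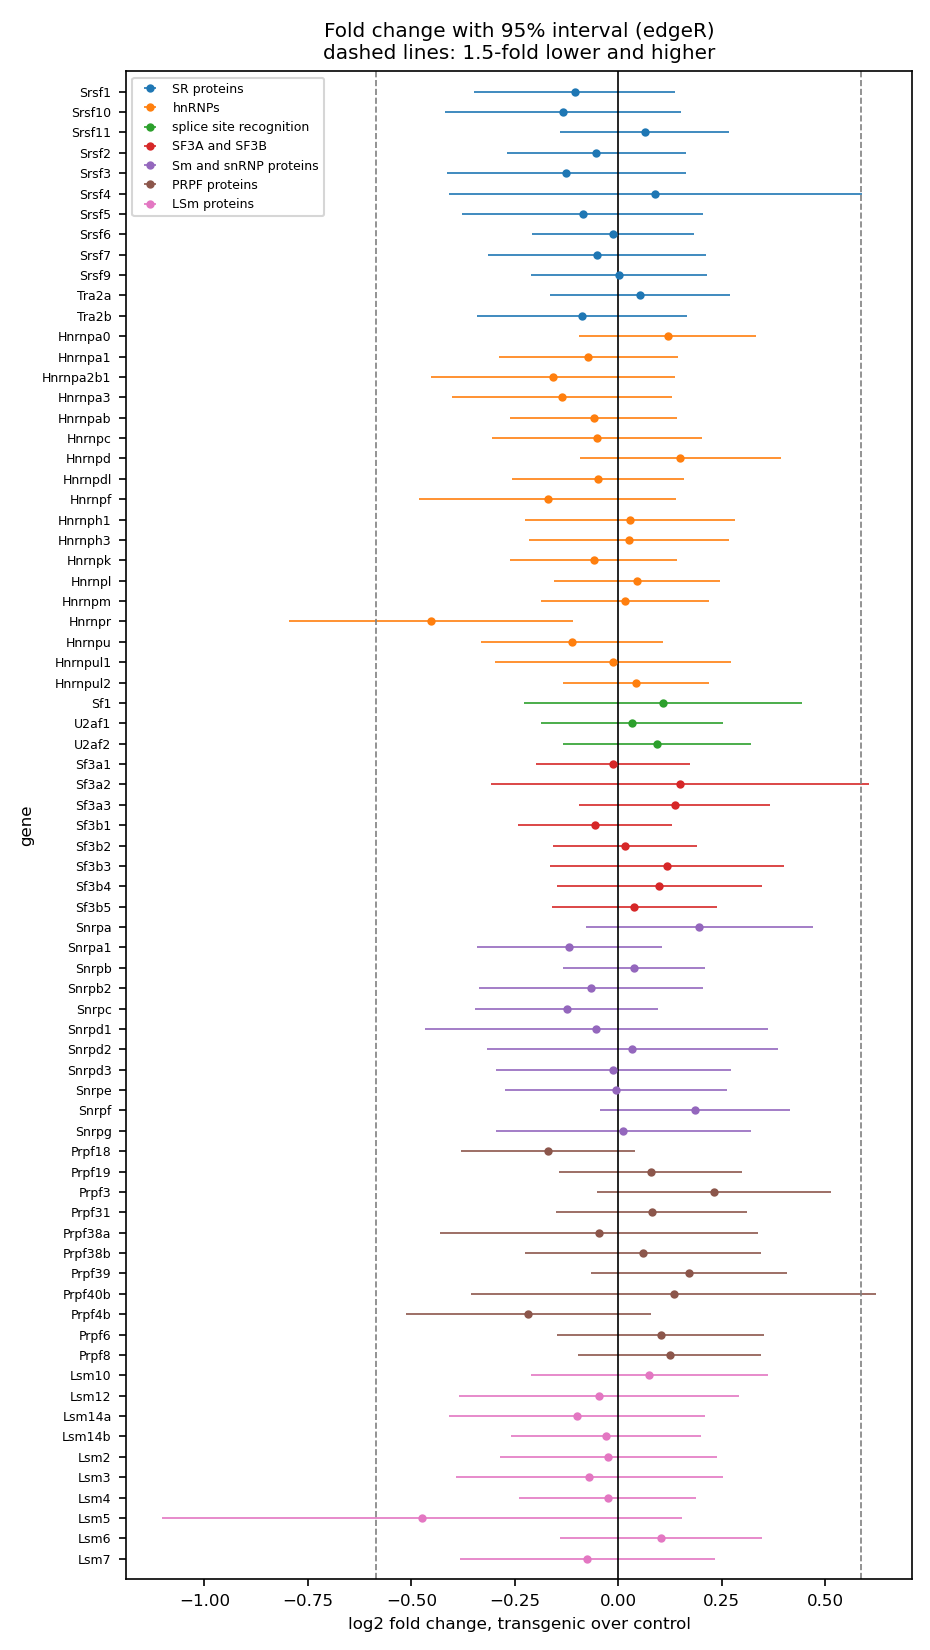
Log2 fold change (x axis, transgenic over control) of each of the 73 genes with its 95% interval from edgeR, coloured by family; dashed lines mark 1.5-fold. Of the 73 intervals 68 lie between the dashed lines, and the interval of Hnrnpr (-0.79 to -0.11) is the 1 that does not include 0.

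With all 6 kidneys, no overlap between the groups was seen in 3 genes, and in all 3 the transgenic kidneys were lower. This is 4.11% of the 73, where the background is 3.02% of all genes for no overlap on the lower side, 2.96% on the higher side and 5.98% in all. Hnrnpr (chromosome 4, 136310942 to 136345981, GRCm38.p6) encodes an hnRNP that is a close relative of Syncrip. It stood at 19.0, 21.7 and 21.01 CPM in transgenic kidneys 1, 2 and 3 and at 23.6, 26.4 and 34.3 CPM in controls 1, 2 and 3. Control 3 had the highest value, and the nearest values of the groups were 21.7 CPM in transgenic kidney 2 and 23.6 CPM in control 1. The log2 fold change was -0.45 ± 0.15 (SE; unadjusted p = 0.0159, adjusted p = 0.997, edgeR). Without control 3 it was -0.28 ± 0.11 (SE; unadjusted p = 0.0350, adjusted p = 0.9996, edgeR).

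Prpf18 (chromosome 2, 4622058 to 4652135, GRCm38.p6) encodes a factor of the second step of splicing. It stood at 26.0, 26.1 and 28.7 CPM in transgenic kidneys and at 29.6, 30.9 and 30.4 CPM in control kidneys. The controls lay close together, and control 3 was between the other controls. The log2 fold change was -0.17 ± 0.09 (SE; unadjusted p = 0.1005, adjusted p = 0.997, edgeR). Snrpa1 (chromosome 7, 66060336 to 66074587, GRCm38.p6) encodes the A′ protein of the U2 particle. Its levels were 20.4, 21.2 and 22.5 CPM in transgenic kidneys and 23.0, 23.1 and 23.4 CPM in control kidneys. The log2 fold change was -0.12 ± 0.10 (SE; unadjusted p = 0.259, adjusted p = 0.997, edgeR).

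**Figure D2:**
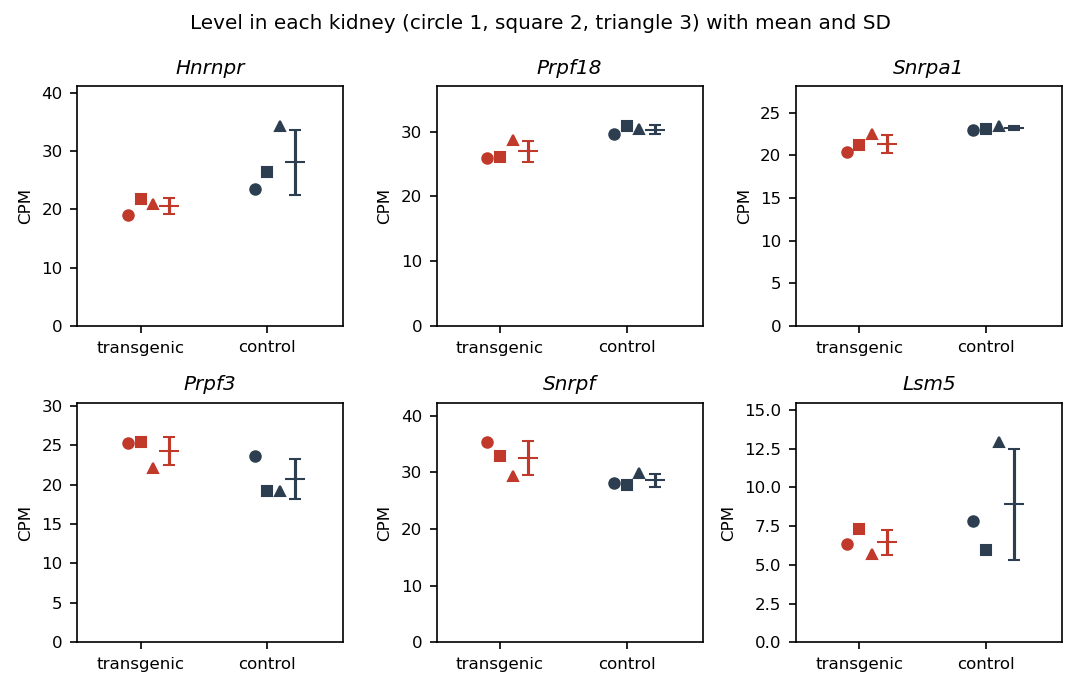
CPM in each kidney (y axis from 0; circle, square and triangle for samples 1, 2 and 3) with mean and SD beside them, transgenic on the left and control on the right. In Hnrnpr, Prpf18 and Snrpa1 the groups do not overlap; in Lsm5 control 3, at 12.9 CPM, lies far above the other controls at 7.81 and 5.98 CPM.

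Among the 12 genes of SR proteins, 4 had a log2 fold change above 0 and 8 below, with a median of -0.05 and a range from -0.13 to 0.09, and none reached an unadjusted p under 0.05. Srsf10, known as a splicing repressor when dephosphorylated, stood at 43.0, 43.6 and 41.4 CPM in transgenic kidneys and at 41.7, 42.5 and 56.0 CPM in control kidneys. The groups overlapped, with control 3 the highest of the 6, and the log2 fold change was -0.13 ± 0.12 (SE), or 0.019 without control 3. Srsf1, the founding SR protein gene, stood at 104, 103 and 114 CPM in transgenic kidneys and at 106, 108 and 130.2 CPM in control kidneys (log2 fold change -0.11 ± 0.11, SE; -0.0044 without control 3). Srsf11, which had the highest mean CPM of the SR genes over the 6 kidneys, stood at 189.8, 194 and 176 in transgenic kidneys and 162, 191 and 182 in control kidneys (0.06 ± 0.09, SE; 0.00038 to 0.12 without 1 library). CPM is not divided by length here, so it does not rank genes by transcript number.

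Srsf4, a long member of the family, had the largest range of the 12 SR genes over the 6 kidneys, 0.98 on the log2 scale. It stood at 45.4, 39.1 and 41.5 CPM in transgenic kidneys and at 43.2, 50.1 and 25.4 CPM in control kidneys. Control 3 was the lowest and control 2 the highest of all 6, so the transgenic values lay inside the range of the controls. The log2 fold change was 0.09 ± 0.22 (SE) and had the other sign, -0.15, without control 3.

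Among the 18 hnRNP genes, 7 lay above 0 and 11 below, with a median log2 fold change of -0.05. Beside Hnrnpr, the gene with the smallest p was Hnrnpd, which encodes AUF1, a protein that binds AU-rich elements of unstable mRNAs. It stood at 51.1, 53.0 and 59.9 CPM in transgenic kidneys and at 44.6, 54.4 and 48.8 CPM in control kidneys (log2 fold change 0.15 ± 0.11, SE; unadjusted p = 0.195), and the log2 fold change ran from 0.079 without transgenic kidney 3 to 0.23 without control 2. Hnrnpa2b1, a core hnRNP gene and the most highly counted of all 73, stood at 389, 396 and 401 CPM in transgenic kidneys and at 406, 380.5 and 538 CPM in control kidneys. Control 3 was the highest of the 6, and controls 1 and 2 lay on either side of the transgenic kidneys. Its log2 fold change was -0.16 ± 0.13 (SE) in all 6 kidneys and 0.0084 without control 3. In Hnrnpa3, which encodes another hnRNP of the A/B type, it was -0.14 in all 6 kidneys and 0.0060 without control 3. In Hnrnpf, whose protein binds runs of G, it was -0.17 and 0.0017.

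The 3 genes of splice site recognition lay above 0. U2af2, whose protein binds the polypyrimidine tract, stood at 116, 120.1 and 114 CPM in transgenic kidneys and at 107, 123 and 98.8 CPM in control kidneys (log2 fold change 0.09 ± 0.10, SE; 0.024 without control 3 and 0.18 without control 2). Sf1, whose protein binds the branch site, stood at 182, 179.6 and 171 CPM in transgenic kidneys and at 156, 205 and 132 CPM in control kidneys (0.11 ± 0.15, SE). In both genes the transgenic kidneys were within the range of the controls, and without control 3 the log2 fold change of Sf1 was -0.028. U2af1, whose protein reads the AG at the end of the intron, was at 0.03 ± 0.10 (SE).

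Of the 8 SF3A and SF3B genes 6 lay above 0, with a median of 0.07. Sf3a3 stood at 32.2, 32.9 and 30.3 CPM in transgenic kidneys and at 28.1, 26.7 and 31.9 CPM in control kidneys (0.14 ± 0.10, SE). Control 3 was the 1 control inside the transgenic range, and without it the log2 fold change was 0.21 (unadjusted p = 0.0470, adjusted p = 0.9996, edgeR). Sf3b3, a scaffold of the SF3B complex, stood at 46.9, 43.5 and 47.3 CPM in transgenic kidneys and at 41.5, 49.6 and 35.9 CPM in control kidneys (0.12 ± 0.12, SE; 0.010 without control 3). Sf3b1, the largest subunit and a contact of the branch site, stood at 282, 296 and 272 CPM in transgenic kidneys and at 280.5, 315 and 289.9 CPM in control kidneys (-0.06 ± 0.08, SE).

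Of the 11 genes of Sm and snRNP proteins 5 lay above 0 and 6 below, with a median of -0.01. Snrpf, of the Sm ring, stood at 35.2, 32.9 and 29.4 CPM in transgenic kidneys and at 28.1, 27.7 and 29.9 CPM in control kidneys (0.19 ± 0.10, SE; unadjusted p = 0.0992, adjusted p = 0.997, edgeR). Transgenic kidney 3 lay below control 3, and every other transgenic value lay above every control value. Snrpa, the U1 A protein gene, stood at 49.7, 41.8 and 43.5 CPM in transgenic kidneys and at 43.5, 40.7 and 33.8 CPM in control kidneys (0.20 ± 0.12, SE; 0.10 without control 3). Snrpb, which encodes the SmB and SmB′ proteins, had the smallest error of the 73, at 128, 126 and 129 CPM in transgenic kidneys and 121, 125 and 127 CPM in control kidneys (0.04 ± 0.08, SE).

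Of the 11 PRPF genes 8 lay above 0 and 3 below, with a median of 0.08. Prpf3, of the U4/U6 particle, stood at 25.3, 25.3 and 22.2 CPM in transgenic kidneys and at 23.6, 19.2 and 19.2 CPM in control kidneys. Control 1 lay above transgenic kidney 3, and the log2 fold change of 0.23 ± 0.12 (SE) was the highest of the 73 (unadjusted p = 0.0979, adjusted p = 0.997, edgeR). Prpf8, the large protein at the heart of the spliceosome, stood at 130.3, 119 and 129.6 CPM in transgenic kidneys and at 118, 125 and 104 CPM in control kidneys (0.12 ± 0.10, SE; 0.05 without control 3). Prpf40b, related to a U1-associated factor of yeast, stood at 60.6, 68.9 and 51.0 CPM in transgenic kidneys and at 57.8, 69.5 and 37.2 CPM in control kidneys. Its log2 fold change was 0.13 ± 0.21 (SE) and -0.085 without control 3.

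Of the 10 LSm genes 2 lay above 0 and 8 below, with a median of -0.04. Lsm5, of the LSm rings, had the lowest mean CPM and the lowest log2 fold change of the 73, -0.47 ± 0.28 (SE; unadjusted p = 0.121, adjusted p = 0.997, edgeR). It stood at 6.32, 7.31 and 5.71 CPM in transgenic kidneys and at 7.81, 5.98 and 12.9 CPM in control kidneys, so that control 3 alone was apart, and without it the log2 fold change was -0.10. Its estimated count was 180.5, 167 and 180.4 in transgenic kidneys 1, 2 and 3 and 212 and 210.03 in controls 1 and 2, the lowest of the 73 in each of these 5. Lsm6 stood at 35.9, 37.7 and 32.6 CPM in transgenic kidneys and at 33.9, 29.4 and 35.6 CPM in control kidneys (0.10 ± 0.11, SE; 0.026 without control 2 and 0.16 without control 3). Lsm4 stood at 75.2, 84.6 and 73.4 CPM in transgenic kidneys and at 80.6, 79.0 and 77.8 CPM in control kidneys (-0.03 ± 0.09, SE). Several of these small proteins have processed copies in the genome, and how the authors counted reads shared with such copies is not stated in the labels or the table's headers.

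**Figure D3:**
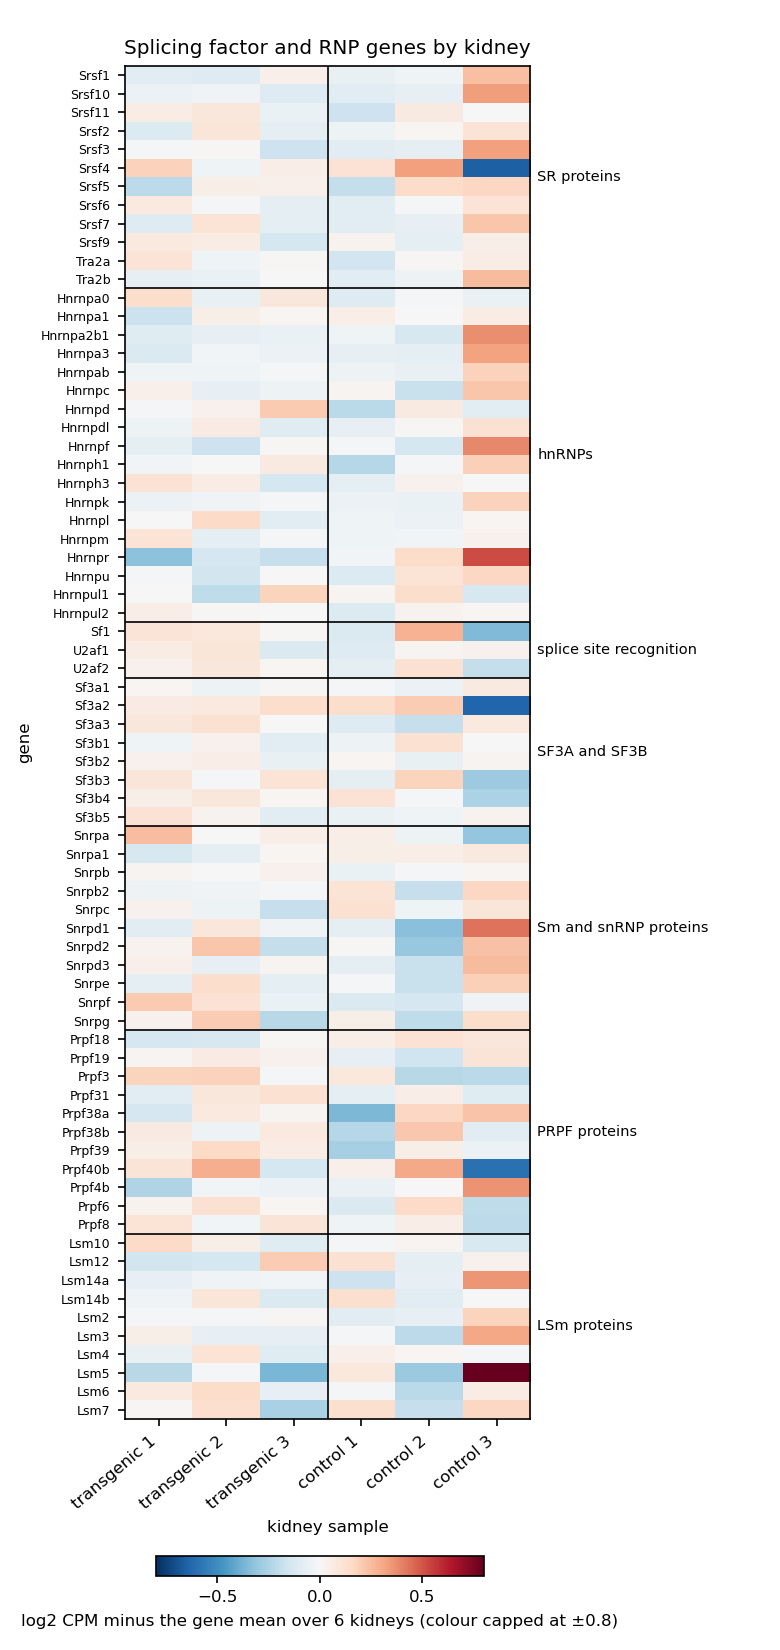
Log2 CPM minus the gene's mean over the 6 kidneys (colour, capped at 0.8 either way) for the 73 genes (rows, by family) in the 3 transgenic and 3 control kidneys (columns). The column of control 3 holds the strongest colours, with Lsm5 and Hnrnpr among the high genes and Srsf4, Sf3a2 and Prpf40b among the low ones.

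Control 3 was the highest of the 6 kidneys in 34 of the 73 genes (46.6%, against 34.8% of all genes tested) and the lowest in 12 (16.4%, against 32.6%). Set against the mean of controls 1 and 2, it differed by more than 0.3 on the log2 scale in 24 of the 73 (32.9%, against 35.4% of all genes). Each kidney was compared in the same way with the other 2 of its group. Control 2 passed that size in 15 genes (20.5%, against 23.8% of all genes) and control 1 in 6 (8.22%, against 6.83%). Transgenic kidneys 1, 2 and 3 did so in 0, 2 and 5 genes (0%, 2.74% and 6.85%). The shares of all genes in these 3 kidneys were 6.78%, 8.84% and 5.59%. The median difference of control 3 from controls 1 and 2 was 0.099 over the 73 genes and 0.015 over all genes tested. By family, it was 0.20 in Sm and snRNP genes, 0.18 in LSm, 0.17 in SR and 0.16 in hnRNP genes. It was 0.0035 in the SF3A and SF3B genes, -0.08 in PRPF genes and -0.21 in the 3 genes of splice site recognition. The median coding G and C share was 50.8% in PRPF genes and 50.6% in both hnRNP and LSm genes. Control 3 was the highest of the 6 kidneys in 11 of 18 hnRNP genes (61.1%) and 8 of 12 SR genes (66.7%), and the lowest in 0 of the hnRNP genes and 1 of the SR genes. Of all 73 genes Lsm5, Srsf4 and Prpf40b had the largest range over the 6 kidneys, at 1.17, 0.98 and 0.90 on the log2 scale.

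The differences of control 3 went with the G and C share of the coding sequence. Across the 73 genes the Spearman correlation of that difference with the share was -0.53, and across 7026 genes with a GENCODE coding sequence it was -0.48. These are descriptions across genes that share 1 library, and the relation was looked for after the differences of control 3 had been seen. All genes tested were split into 3 equal groups by coding G and C share. Of the 36 members in the group with the lowest share (up to 50.7%), 28 were higher in control 3 than in both other controls and 1 was lower than both. Of the 20 in the middle group 11 were higher and 5 lower, and of the 17 in the group with the highest share (over 56.4%) 7 were higher and 8 lower. These counts were made for the 73 genes only, so they cannot tell whether the 73 differ from other genes of like share. In the transgenic kidneys 1, 2 and 3 the same correlation was 0.32, -0.13 and -0.15 over the 73 genes and 0.046, 0.027 and -0.062 over all genes. Controls 1 and 2, which are measured against a mean that includes control 3, gave 0.42 and 0.37 over the 73 genes. Over all genes they gave 0.31 and 0.43. The median difference of control 3 was 0.23 in the group with the lowest share, 0.061 in the middle group and 0.0084 in the group with the highest.

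The fold change between the groups was read in the same way. Across the 73 genes the Spearman correlation of the log2 fold change with the coding G and C share was 0.39 with all 6 kidneys and -0.13 without control 3, and across all genes it was 0.37 and -0.09. The median size of the log2 fold change was 0.06 without control 3, and 25 of the 73 had the other sign. In these 25 the log2 fold change with all 6 kidneys was at most 0.171 in size. Without control 3, 2 of the 73 (2.74%) had an unadjusted p under 0.05, against 2.31% of all genes. The groups did not overlap in 10 (13.7%, against 15.1% of all genes), 7 higher and 3 lower in transgenic kidneys. The share of all genes by direction was not counted here or for the corrected fit below. With a correction of each library for G and C share and transcript length, 2 of the 73 (2.74%) had an unadjusted p under 0.05. These were Hnrnpr and Snrpf, and the share of all genes was 2.29%. The groups did not overlap in 6 (8.22%, against 6.41% of all genes), 3 higher and 3 lower in transgenic kidneys. In that fit Hnrnpr was at -0.42 (unadjusted p = 0.0225), and its groups did not overlap, while those of Prpf18 and Snrpa1 did. None of the 73 had an adjusted p under 0.05 by edgeR in either fit, against 0.0278% of all genes without control 3 and 0.0139% with the correction.

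**Figure D4:**
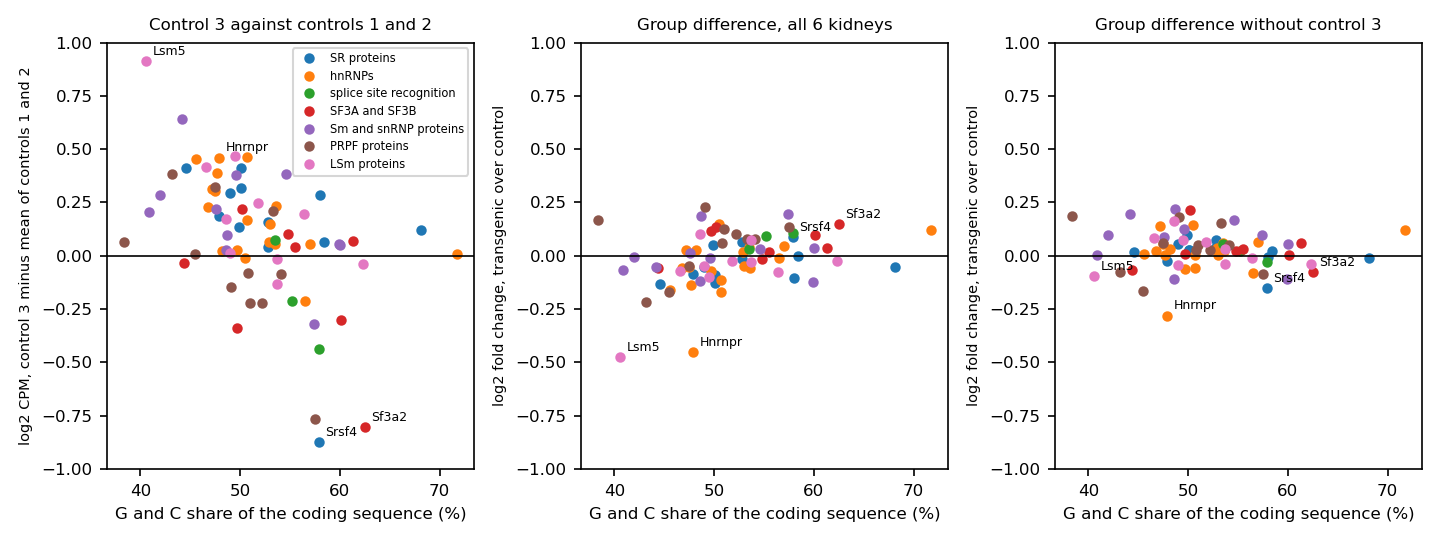
G and C share of the coding sequence (x axis, %) for the 73 genes against the log2 CPM of control 3 minus the mean of controls 1 and 2 (left), the log2 fold change of transgenic over control in all 6 kidneys (middle) and without control 3 (right). The left panel slopes down (Spearman -0.53), the middle one up (0.39) and the right one shows little slope (-0.13).

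Annotated transcripts bear on what a count per gene can show. GENCODE vM21 lists a transcript with the fate of nonsense-mediated decay for 36 of the 73 genes (49.3%), against 30.7% of all genes with a coding sequence. It does so for 11 of the 12 SR protein genes, all 3 genes of splice site recognition, 9 of 18 hnRNP genes, 6 of 11 PRPF genes, 4 of 11 Sm and snRNP genes, 2 of 10 LSm genes and 1 of 8 SF3A and SF3B genes. A transcript with a retained intron is listed for 57 of the 73 (78.1%, against 62.7%). The 73 genes also have more annotated transcripts, with a median of 6 against 5, and its part in these shares was not tested. The table has 1 value per gene, so productive and decaying transcripts are added together, and shifts between them were not analysed here.

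Other genes of the splicing pathway were read in the same fit. Of 53 further core spliceosome genes in the table, 1 was higher and none lower at an unadjusted p under 0.05 (1.89%, against 1.82% of all genes), and none passed adjustment. That gene was Dhx16, a helicase of spliceosome activation, at 70.9, 68.3 and 64.6 CPM in transgenic kidneys and 58.4, 60.7 and 56.0 CPM in control kidneys (log2 fold change 0.22 ± 0.09, SE; unadjusted p = 0.0342, adjusted p = 0.997, edgeR). Dhx16, Ncbp1 of the nuclear cap-binding complex (0.18) and Txnl4a of the U5 particle (0.08) were higher without overlap, 5.66% of the list against 2.96% of all genes. Of 33 splicing regulators outside the families none had an unadjusted p under 0.05 and none passed adjustment by edgeR. Luc7l2, a U1-associated factor, was higher without overlap (0.15) and Celf1 lower (-0.19), each 3.03% of the list, against 2.96% and 3.02% of all genes. Syncrip, the relative of Hnrnpr, stood at 38.8, 36.6 and 42.6 CPM in transgenic kidneys and at 44.5, 41.6 and 53.2 CPM in control kidneys (-0.24 ± 0.12, SE; unadjusted p = 0.0697).

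Of 12 genes for kinases, phosphatases and importers of SR proteins, 1 was lower at an unadjusted p under 0.05 and none passed adjustment. This is 8.33% of the list, against 1.82% of all genes in either direction. Ppp1cb, a catalytic subunit of protein phosphatase 1, stood at 68.1, 78.8 and 76.2 CPM in transgenic kidneys and at 90.5, 78.3 and 130.3 CPM in control kidneys, where control 3 was the highest (log2 fold change -0.42 ± 0.18, SE; unadjusted p = 0.0436). Prpf4b, a splicing kinase counted in this list and among the 73, was at -0.22 ± 0.13 (SE), and at -0.08 without control 3. Of 12 genes of snRNP assembly and 8 of nonsense-mediated decay none had an unadjusted p under 0.05 or passed adjustment by edgeR. Usb1, which trims U6 snRNA, was higher without overlap (0.17), 1 of 12 (8.33%) against 2.96% of all genes. Clns1a, of the complex that loads Sm proteins, was at -0.15 ± 0.12 (SE). Smg9, of the decay pathway, was at 0.14 ± 0.12 (SE), with overlapping groups. The medians of these 5 lists lay between -0.02 and 0.09.

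Markers of cell types were read beside these results, as the summed CPM of measured genes or, for podocytes and the adrenal gland, as single genes. For the proximal tubule the sum was 57097 to 61614 CPM in transgenic and 58565 to 67029 CPM in control kidneys. For the thick ascending limb it was 2726 to 3037 and 2853 to 3366 CPM, in the same order. For the distal convoluted tubule it was 526 to 698 and 587 to 661 CPM, and for the collecting duct 769 to 892 and 879 to 964 CPM. None of these tubule markers had an unadjusted p under 0.05 by edgeR (0%, against 1.82% of all genes). For red blood cells, with 3 of 5 genes measured, the sum was 499 to 757 CPM in transgenic and 532 to 925 CPM in control kidneys. Hbb-bs and Hba-a2 were lower at an unadjusted p under 0.05 by edgeR, 66.7% of the 3 against 1.82% of all genes. Hba-a2 had an adjusted p under 0.05 by edgeR without control 3, both with and without the G and C and length correction. For leukocytes, with 5 of 8 genes, the sum was 173 to 231 CPM in transgenic and 199.9 to 243 CPM in control kidneys. For fat cells, with 2 of 5 genes, it was 106 to 155 CPM in transgenic and 87.7 to 255 CPM in control kidneys. For podocytes, Podxl stood at 109.9, 91.4 and 97.5 CPM in transgenic kidneys and at 84.6, 76.1 and 94.7 CPM in control kidneys (log2 fold change 0.23 ± 0.12, SE; unadjusted p = 0.0829, edgeR), and only transgenic kidney 2 lay below a control value. For the adrenal gland, Akr1b7, the 1 of 5 genes measured, stood at 6.88, 7.79 and 6.47 CPM in transgenic kidneys and at 4.49, 5.67 and 5.44 CPM in control kidneys, with no overlap (0.43 ± 0.17, SE; unadjusted p = 0.0298, edgeR). The part of these differences in the levels of the 73 genes was not tested.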

How the data were processed

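Estimated counts per gene, as the authors deposited them, are not whole numbers and were rounded. The deposited log2 columns equal the log2 estimated count minus a constant for each library and a constant for each gene, tested on the table, and served for 1 alternative. Per the file headers genes were kept by an NRPKM cut-off, per the submitters' processing notes the build was mm10, and neither aligner nor counter is named in the labels or headers. Of 24 columns of per-sample values, 12 match these samples and 12 were not used.

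In edgeR 4.0.16 under R 4.3.3, glmQLFit and glmQLFTest were run with group as the only term, after leaving out the 178 rows at 0 in control 3, filterByExpr and TMM, on 7194 genes. P-values are two-sided and adjusted by Benjamini-Hochberg. Intervals are the log2 fold change plus or minus the 95% t quantile times its SE, which is the log2 fold change over the square root of F. CPM use TMM library sizes. An exact permutation test of 3 against 3 cannot go below p = 0.1. Libraries differed by a chi-square per degree of freedom of 23.3 to 152, so none looked duplicated. limma was version 3.58.1 and DESeq2 version 1.42.0. Coding sequences (97.7% of genes, all 73 members) came from GENCODE vM21, positions from RefSeq on GRCm38.p6.

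The members and lists were chosen with earlier results of these data known. Described by name were genes without overlap or at an unadjusted p under 0.05, in each family the 2 smallest p-values and the highest CPM, the 3 largest ranges, and in each context list the 2 smallest p-values and those at an unadjusted p under 0.05. An item that this rule names is not reported here. Hnrnpa3, Hnrnpf, U2af1, Sf3a2, Prpf4b and context genes without overlap were added after their values were seen.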

Additional observations from a re-analysis of the deposited data

How the results depend on the processing

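No member passed an adjusted p of 0.05 in any of 18 alternatives, and the lowest adjusted p of the 23 named members was 0.499 (edgeR, DESeq2 or limma). The count over all genes, 1 with edgeR, was 2 with DESeq2, 0 with all rows of the table or with limma on the deposited log2 columns, and 2 with the G and C and length correction without control 3. Leaving out 1 library gave 0 to 2 genes, with 0 without transgenic kidney 1, 2 or 3 or control 1 and 2 without control 3. Members at an unadjusted p under 0.05, 1 with edgeR, numbered 9 with limma array weights (12.3%, against 8.81% of all genes). They numbered 2 with the correction (2.74%, against 2.29%) and 0 with the correction without control 3 (against 2.61%). Leaving out 1 library gave 0 to 4, with 0 without transgenic kidney 1 (against 0.65% of all genes). Without control 1 or control 3 there were 2 (2.74%), against 1.39% and 2.31% of all genes. Without control 2 there were 4 (5.48%, against 8.30% of all genes). Members without overlap, 3 in all 6 kidneys, numbered 6 with the correction, 11 (15.1%, against 15.0% of all genes) with the correction without control 3, and 6 to 16 without 1 library. The lowest was without transgenic kidney 1 (8.22%, against 10.1% of all genes) and the highest without control 2 (21.9%, against 24.6%). The median log2 fold change of the members lay between -0.027 and 0.027 without 1 library.

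Of 390 values of named members under these alternatives, 377 had the direction of the fit of all 6 kidneys. Leaving out 1 library, the log2 fold change ran from -0.26 to 0.0084 in Hnrnpa2b1, -0.028 to 0.30 in Sf1, -0.21 to 0.019 in Srsf10, -0.15 to 0.30 in Srsf4 and -0.085 to 0.34 in Prpf40b, with the other sign without control 3, and from -0.091 to 0.013 in Lsm4, with the other sign without transgenic kidney 3. Signs also turned with array weights in Srsf10 (0.0049) and Srsf4 (-0.018), with the correction in Sf3b1 (0.011) and Snrpb (-0.0046), and with the correction without control 3 in Srsf10 (0.022), Srsf4 (-0.14) and Prpf40b (-0.061). The cause was not tested. Hnrnpr lay between -0.56 and -0.24 in all 17 refits. The correction was chosen after the data were seen. Same-numbered samples deviated together at correlations of -0.0015, -0.027 and 0.33, and differently numbered ones at -0.43 to 0.43. With so few samples, these values cannot tell whether the numbers pair the samples. With the replicate block 1 gene in all, 0 members past adjustment and 1 member at an unadjusted p under 0.05 were counted. With 3 samples a group, depth was lowest for Lsm5, at 167 to 180.5 counts in transgenic kidneys.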
